A study of Mus musculus with 2 samples.

Results

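The clustered protocadherin genes are neighbouring genes on mouse chromosome 18 that encode cadherin-like adhesion proteins of the cell surface. Members were all protein-coding genes with symbols that begin with Pcdha, Pcdhb or Pcdhg in GENCODE vM21 on build mm10. There were 57 of them among 21951 protein-coding genes, 14 in the alpha, 22 in the beta and 21 in the gamma sub-cluster, all transcribed in the direction of rising coordinates. The annotation gives 56 symbols because it uses Pcdha11 for 2 gene records. The record that starts at 37005203 lies where RefSeq places Pcdha10 and is called Pcdha10 here. The span of the members ran from 36930184 to 37841873, which is 911.69 kb, and peaks were also counted in the 100 kb on each side.

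In neurons, each cell uses its own small set of these genes, and the proteins on its surface mark the cell's identity and let its branches recognise and avoid each other. Each alpha or gamma gene contributes a large variable first exon with its own promoter, which is spliced to constant exons shared by the sub-cluster, whereas each beta gene is a single coding exon. The zinc finger protein CTCF binds a conserved element in most of these promoters and, in many alpha genes, another place inside the variable exon, and together with cohesin it brings promoters to distant enhancers. The C-type members Pcdhac1, Pcdhac2, Pcdhgc3, Pcdhgc4 and Pcdhgc5 lie at the downstream ends of the alpha and gamma variable exons and are known for broad rather than random use in neurons. The genes are best known from the nervous system, and the tissue measured here was liver.

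Chromatin immunoprecipitation with sequencing for CTCF was made on liver of B6NCrl embryos of both sexes at 14.5 days of development. The livers had been pulverised and pooled over several dissections, and no other treatment, genotype or tissue was measured. The 1 group held 2 libraries, replicate 1 and replicate 2, which the labels number as biological replicates while giving both the same pooled biosample. Their spread was therefore read as that of library making and sequencing, and whether it also holds differences between animals could not be checked. No measurement of transcripts was analysed, so the tissue label and the activity of the genes could not be checked.

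The deposited lists of peaks were thresholded for reproducibility (the optimal list, 50909 peaks, and the conservative list, 49129 peaks) or held weak peaks too (the pooled list and the list of each replicate, 300000 peaks each). The read depth is unknown. Each peak carries a deposited signal with no stated scale, whose median in the optimal list was 67.9, and signals are compared here only within a list. A relative signal is the signal of a replicate's peak within 100 bp of an optimal summit, divided by the median of that replicate's 50909 strongest peaks, so that 1 is an ordinary strong peak. In tissue, a low signal from binding in few cells or on 1 allele and a low signal from weak binding in all cells cannot be told apart. How well reads can be assigned to these closely similar genes was not measured. Members share sequence and 1 locus and are not replicates of each other, so shares and levels of the sub-clusters are described without a test.

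In the optimal list, CTCF was found mainly at gamma promoters, at a few alpha genes and hardly at beta genes. An optimal summit lay within 1 kb of an annotated start in 17 of the 57 members (29.8%), against 35.2% of all protein-coding genes. The gamma sub-cluster held 11 of the 17, with a peak at 52.4% of its members. The alpha sub-cluster had 4 members with a peak (28.6%) and the beta sub-cluster 2 (9.09%). The median signal of these peaks was 57.0 in gamma (24.3 to 186), 30.2 in alpha (24.6 to 41.9) and 20.8 in beta (15.9 to 25.7). Only 5 members, all gamma, had a peak above the median of the optimal list (8.77%), against 18% of protein-coding genes. The median relative signal was 0.933 ± 0.173 (SD, n = 2) in gamma and 0.466 ± 0.0585 (SD, n = 2) in alpha. In beta it was 0.557 in replicate 2, and neither beta peak had a matching peak in replicate 1. In replicate 1 the gamma median was 1.06 and the alpha median 0.424, and in replicate 2 they were 0.810 and 0.507, so both replicates placed the gamma median above alpha. The alpha medians rest on 3 members in replicate 1 and 4 in replicate 2. The 5 gamma members with a peak from Pcdhga1 to Pcdhgb4 had relative values of 0.278 to 0.810, much like alpha at 0.324 to 0.813. The conservative list had 12 gamma, 4 alpha and no beta members with a peak within 1 kb of a start, against 34.4% of protein-coding genes. Within 500 bp of a start the optimal list had 11 gamma, 2 beta and 1 alpha members, against 28.7%.

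**Figure D1:**
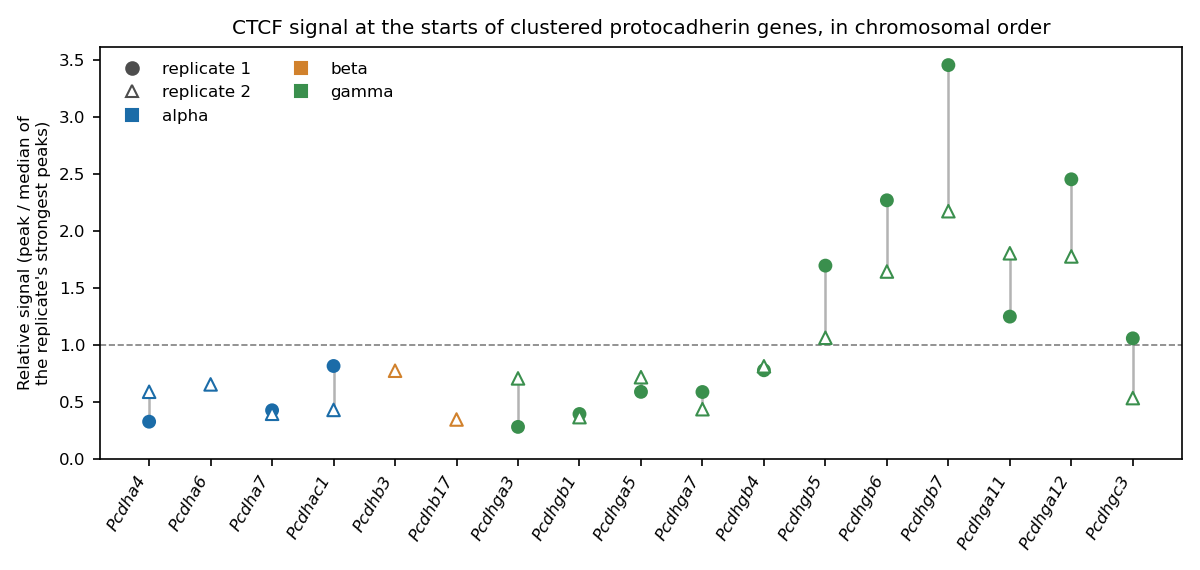
Relative signal (vertical axis, a ratio to the median of the replicate's strongest peaks) of the 17 members with an optimal peak, in chromosomal order along the horizontal axis, coloured by sub-cluster. Filled circles are replicate 1 and open triangles replicate 2, and the values from Pcdhgb5 to Pcdhga12 lie between 1.06 and 3.45, above those of the alpha, beta and earlier gamma members.

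Within gamma the strong peaks stood together near the downstream end of the A and B genes. The gamma A and B types are families of variable exons that are interspersed along the chromosome. Pcdhgb7 had the highest signal of any member, 186 (rank 10978 of the optimal list), with a relative signal of 3.45 in replicate 1 and 2.17 in replicate 2, or 2.81 ± 0.906 (SD, n = 2). Its peak covered chr18:37751441-37751654, with the summit 63 bp upstream of the start. Both replicates thus placed it well above an ordinary strong peak. Pcdhga12 followed with a signal of 145 and relative values of 2.45 in replicate 1 and 1.77 in replicate 2. At Pcdhgb6 the signal was 132, with relative values of 2.27 and 1.64. Replicate 1 read higher than replicate 2 at all 3 of these genes.

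The order was the other way round at Pcdhga11, whose signal was 104 and whose relative signal was 1.25 in replicate 1 and 1.80 in replicate 2. Pcdhgb5 had a signal of 92.4 and relative values of 1.69 and 1.06. Within each replicate the order of level was Pcdhgb7, Pcdhga12, Pcdhgb6 and Pcdhgb5, while Pcdhga11 was the lowest of the 5 in replicate 1 and next to Pcdhgb7 in replicate 2. Between Pcdhga11 and Pcdhga12 lies Pcdhgb8, annotated as a polymorphic pseudogene and so not a member. A peak of signal 96.5 stood 146 bp upstream of its start, with a relative signal of 1.44 ± 0.0509 (SD, n = 2), so the run of strong peaks continued across it.

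The 5 gamma members with a peak further upstream all had lower values. Pcdhgb4 had a signal of 57.0 and relative values of 0.775 in replicate 1 and 0.810 in replicate 2. Pcdhga5 had a signal of 43.3, with relative values of 0.586 and 0.714. Pcdhga3 had a signal of 35.8 and was the least alike between replicates, at 0.278 and 0.704. Pcdhga7, at a signal of 35.5, gave 0.584 and 0.434, and Pcdhgb1, at 24.3, gave 0.392 and 0.364. The highest of these 10 replicate values, 0.810, was below the lowest of the 10 values from Pcdhgb5 to Pcdhga12, 1.06. The 2 sets were divided with the signals known and hold only members with an optimal peak. Their lack of overlap is therefore a description and not a test. Pcdhga8, just upstream of Pcdhgb5, and Pcdhga9 and Pcdhga10, inside the downstream stretch, had no optimal peak at a start, with pooled signals of 15.6, 16.3 and 19.3. The median signal was 35.8 in the upstream set and 132 in the downstream set. Across the 10 gamma A and B members with a peak, position along the chromosome and optimal signal had a Spearman rho of 0.879 and a Pearson r of 0.918 on log2 signal. The rho was 0.891 in each replicate. Neighbouring genes share sequence and the same libraries, so this is a description of 10 linked sites. Over all 18 gamma A and B members, with the pooled list, the rho was 0.593.

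Of 6 gamma B members, 5 had an optimal peak within 1 kb, and of 12 gamma A members 5 had one, beside 35.2% of all protein-coding genes. In replicate 1's strongest peaks the counts were also 5 and 5, and in replicate 2's they were 5 of 6 B and 8 of 12 A members. With the 100000 strongest pooled peaks they were 5 of 6 B and 12 of 12 A members, so the higher share in B was seen among strong peaks and not with weak ones included. The B member without an optimal peak was Pcdhgb2, whose pooled peak had a signal of 8.0. The A genes between the strong B genes Pcdhgb5, Pcdhgb6 and Pcdhgb7 were weak, with a pooled signal of 16.3 at Pcdhga9 and 19.3 at Pcdhga10, next to 92.4, 132 and 186. Further upstream the order of neighbours varied: Pcdhga3 (35.8) was above Pcdhgb1 (24.3), and Pcdhga8 (15.6) was below Pcdhgb4 (57.0). The median pooled signal was 74.7 over the 6 B members and 19.3 over the 12 A members, but the ranges, 8.0 to 186 and 14.9 to 145, overlapped.

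The alpha peaks were weaker and mostly inside the variable exon. Pcdha4 had a signal of 32.1, at chr18:36953074-36953389, with relative values of 0.324 in replicate 1 and 0.586 in replicate 2. Pcdha7 had a signal of 28.3 and relative values of 0.424 and 0.393. Pcdha6 had a signal of 24.6 and gave 0.651 in replicate 2, while replicate 1 had no peak within 100 bp. All 3 summits lay in coding sequence, between 557 and 582 bp downstream of the gene's own nearest start. Starts of the antisense genes Gm38225, 189 bp from the Pcdha4 summit, and Gm37753, 84 bp from the Pcdha6 summit, lay closer. The fourth alpha peak, at the C-type gene Pcdhac1, lay 52 bp upstream of the start. Its signal was 41.9, with relative values of 0.813 and 0.427, and it was the strongest in the alpha sub-cluster in the optimal list and in replicate 1 but not in replicate 2.

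The beta sub-cluster of 22 genes had peaks at Pcdhb3 and Pcdhb17. Pcdhb3 had a signal of 25.7 with the summit 14 bp upstream of its start, and gave 0.771 on the relative scale in replicate 2. Pcdhb17 had a signal of 15.9 and gave 0.343 in replicate 2. Replicate 1 had no peak within 100 bp of either summit, and neither gene had a conservative peak within 1 kb of its start. Both beta calls at starts therefore rest on replicate 2. The conservative list did hold a peak of signal 16.4 in the coding exon of Pcdhb3, 2383 bp from its start. Replicates 1 and 2 each had a peak within 100 bp of that summit, at 0.289 and 0.207 on the relative scale.

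The C-type members did not behave as a set. Pcdhgc3 had a peak 45 bp upstream of its start, with a signal of 55.1 and relative values of 1.06 in replicate 1 and 0.531 in replicate 2, and Pcdhac1 had the peak described above. Pcdhac2 and Pcdhgc4 had no summit within 1 kb in any list. At Pcdhgc5 the pooled list held a weak peak of signal 6.95, rank 163164, 40 bp upstream of the start. As background, Pcdhac2, Pcdhb1, Pcdhgc4 and Pcdhgc5 are known to lack the conserved promoter element that the other members share. The pooled signal at Pcdhb1 was 5.27, the lowest of any member with a pooled peak, and its summit lay 285 bp downstream of the start. Another 8 beta members had no pooled peak within 1 kb. Whether the lack of the element plays a part in these values was not tested.

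Summits kept a narrow distance to the coding sequence. At the 11 gamma members the strongest summit lay 187 to 244 bp upstream of the first coding base, with a median of 232 bp and an SD over genes of 16.3 bp. The summits at Pcdhb3 (198 bp), Pcdhb17 (223 bp) and Pcdhac1 (175 bp) lay at a like distance upstream. The 3 other alpha summits lay 447 to 476 bp downstream of it. Relative to the annotated start, 12 of the 17 strongest summits (70.6%) were 1 to 100 bp upstream, against 21.6% of protein-coding genes with an optimal promoter peak. In gamma this was 10 of 11 (90.9%). The exception, Pcdhga12, has an annotated start 320 bp upstream of the summit and another 127 bp upstream, but its summit lay 217 bp before the coding sequence like the rest. Pcdhga3, Pcdhga5 and Pcdhga7 each had a weaker optimal peak 199 to 219 bp downstream of the strong one, with signals of 5.38, 14.4 and 14.8.

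**Figure D2:**
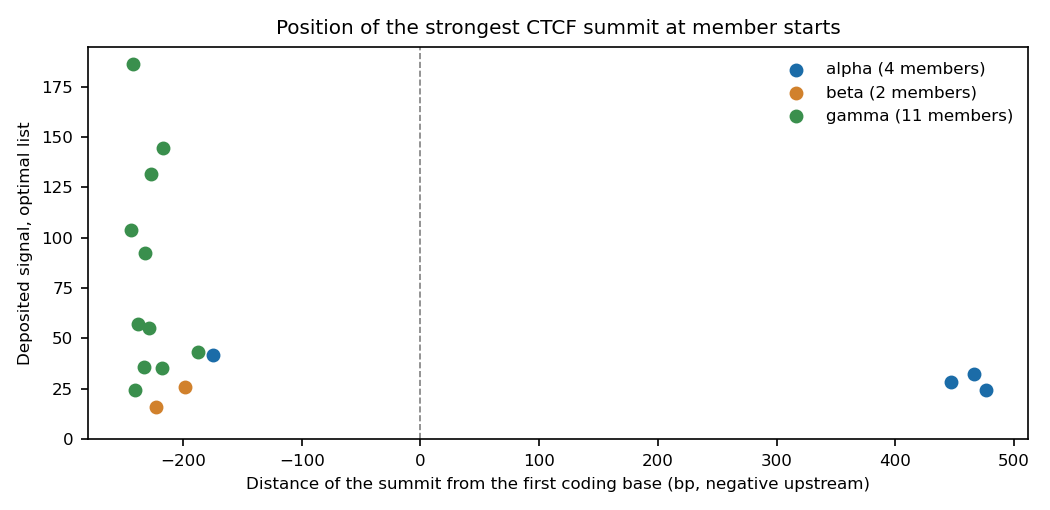
Distance of the strongest optimal summit from the first coding base (horizontal axis, bp, negative upstream) against its deposited signal (vertical axis, no stated unit), with 1 point for each of the 17 members, coloured by sub-cluster. The points form 1 column between 244 and 175 bp upstream, with all gamma members, and another of 3 alpha members between 447 and 476 bp downstream.

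Both positions were then examined in every member with the pooled list, which holds weaker peaks. Windows were set after these summits had been seen, at 300 to 100 bp upstream of the first coding base and at 400 to 550 bp downstream of it. The upstream window held a pooled summit in 19 of 21 gamma, 11 of 22 beta and 4 of 14 alpha members, against 13.5% of protein-coding genes. The 14 optimal summits around which this window was drawn, 11 gamma, 2 beta and 1 alpha, are among them by construction. In replicate 1 the counts were 15 gamma, 4 beta and 2 alpha members, and in replicate 2 they were 19, 16 and 5, against 13.5% and 10.6% of genes. Gamma was the sub-cluster with the largest share in each replicate. All 11 gamma summits that set the window had matching peaks in both replicates, so this lead is in part built into the window. The beta count differed most between the libraries. The downstream window held a pooled summit in 8 of 14 alpha members and in no beta or gamma member, against 6.7% of protein-coding genes. The 3 optimal alpha summits that set this window are among them by construction. Replicate 1 had 4 alpha and 1 beta member, against 6.96%, and replicate 2 had 7 alpha members, against 4.81%.

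The letters under the peaks differed between the alpha summits inside exons and the summits upstream of the coding sequence. CTCF recognises a core motif, and a match here is the 14-letter core consensus on either strand with at most 2 mismatches. Within 50 bp of the strongest summit, 4 of 17 members had a match (23.5%), all alpha and all in the direction of the genes. The share was 48% for the strongest promoter peaks of all protein-coding genes and 70.8% for all optimal peaks. The 3 exonic alpha summits had matches with 0 mismatches. Pcdhac1, the only alpha summit upstream of the coding sequence, had 2, the most that the rule allows. Of the 11 gamma members, 5 had a best match with 3 mismatches, 4 with 4 and 2 with 5, among them Pcdhgb7 with 4. The member of highest signal therefore had no match by this rule, and gamma members as a set had none.

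In the exonic window, 6 of 14 alpha members held the motif with 0 mismatches, against 0.0873% of all protein-coding genes (19 genes, these members included). These were Pcdha1, Pcdha4, Pcdha6, Pcdha7, Pcdha8 and Pcdha12, and all 6 had a pooled summit in the window, with signals of 7.97 to 32.1. The window was drawn around the summits of Pcdha4, Pcdha6 and Pcdha7, so these 3 are among the 6 by construction, for motif and summit. Of the other 8 alpha members, Pcdha5 (9.77) and Pcdhac1 (9.51) had one. In the upstream window a match with at most 2 mismatches was present in 3 alpha, 5 beta and no gamma members, against 9.28% of genes. With at most 3 mismatches it was present in 12 alpha, 18 beta and 11 gamma members, against 42.4%. The upstream order of the sub-clusters by motif was therefore not their order by peaks. A consensus match is a count of letters, and no match in a window says nothing on whether the protein binds there.

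More members had a summit near a start in the pooled list than in the optimal list, and so did more protein-coding genes. With the 100000 strongest pooled peaks, 32 members had one within 1 kb, 18 gamma, 7 alpha and 7 beta, against 54.4% of protein-coding genes. With the whole pooled list the count was 46, made up of 20 gamma, 12 alpha and 14 beta members, against 71%. Among gamma members without an optimal peak, Pcdhga2 and Pcdhga10 each had a pooled signal of 19.3, at ranks 50832 and 50883, and Pcdhga9 had 16.3. Pcdhga10 is in the conservative list although not in the optimal one. Signal alone did not decide entry to the optimal list, which holds lower peaks, such as Pcdhb17 at 15.9 and the second Pcdhga3 peak at 5.38. Among alpha members the highest such signals were 15.4 at Pcdha8, 14.7 at Pcdha1 and 9.77 at Pcdha5, all with summits 430 to 536 bp downstream of a start. Among beta members they were 14.6 at Pcdhb8, 12.4 at Pcdhb4 and 12.1 at Pcdhb6, with summits 52 to 133 bp upstream.

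**Figure D3:**
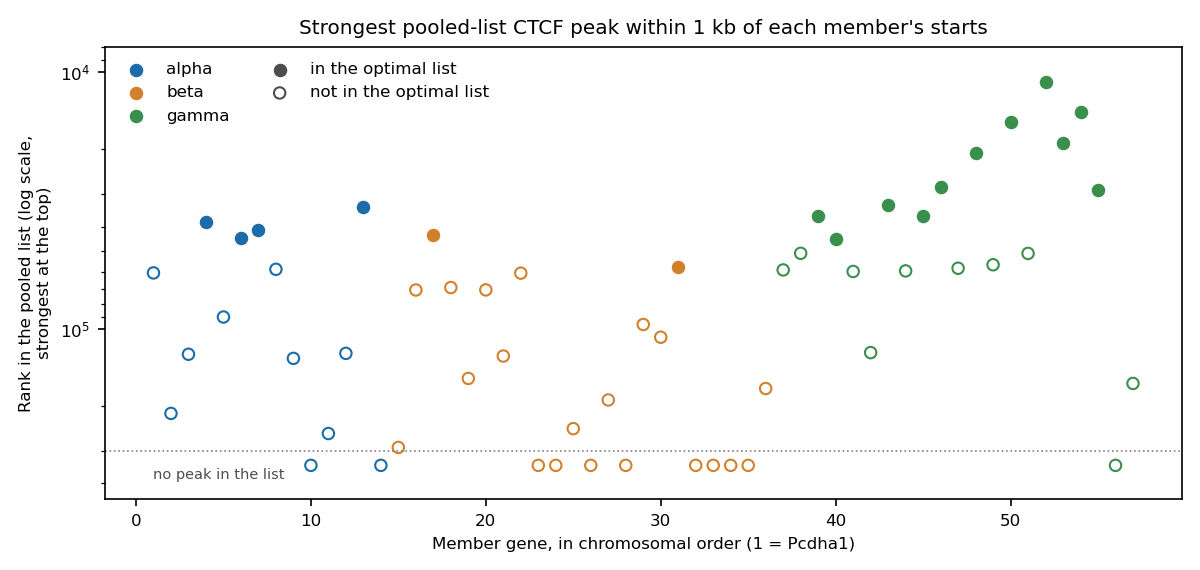
Rank in the pooled list (vertical axis, log scale, strongest at the top) of the strongest peak within 1 kb of each member's starts, with members in chromosomal order on the horizontal axis and coloured by sub-cluster. Filled points are in the optimal list and open points are not, and the strong end is held by gamma members with Pcdhgb7 at the top.

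The depth of the list changed how the sub-clusters compared with other genes. With the 25000 strongest pooled peaks, 23.8% of gamma members and no alpha or beta member had a summit, against 17.7% of protein-coding genes. With the 10000 strongest, no member had one, against 8.5%. With 75000 the shares were 85.7% in gamma, 42.9% in alpha and 27.3% in beta, against 47.9%. With all 300000 they were 95.2%, 85.7% and 63.6%, against 71%. With 50909 they were 61.9%, 28.6% and 4.55%, against 35.5%. From 25000 peaks on, gamma was above alpha, and from 50909 on alpha was above beta, at the depths computed for the pooled list. The whole lists of the replicates did not share the order of alpha and beta. Replicate 1 had 71.4% of alpha and 36.4% of beta members, against 71.7% of protein-coding genes. Replicate 2 had 78.6% of alpha and 81.8% of beta members, against 64.4%.

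**Figure D4:**
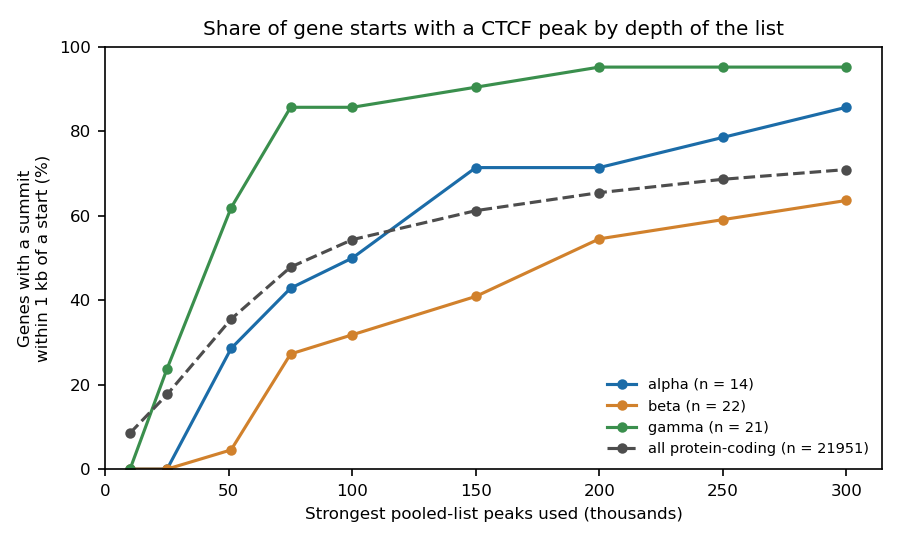
Share of genes with a summit within 1 kb of a start (vertical axis, percent) as more of the strongest pooled peaks are used (horizontal axis, units of 1000 peaks), for the 3 sub-clusters and for all protein-coding genes (dashed). The gamma curve rises from 23.8% at 25000 peaks to 85.7% at 75000 and stays above the other curves from there on, while beta is the lowest.

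The replicates differed in how many members they called. Among the 50909 strongest peaks of each, replicate 1 had a summit at 13 members (11 gamma, 2 alpha), against 39.4% of protein-coding genes. Replicate 2 had one at 23 members (14 gamma, 6 alpha, 3 beta), against 31.7%. Replicate 2 therefore called more members and fewer genes overall. Both replicates had a summit at 12 members, 10 gamma and 2 alpha, replicate 1 alone at 1 and replicate 2 alone at 11. The matching shares of all protein-coding genes are not given here, so these counts cannot be set against genes in general. Over the 14 members matched in both, the relative signals of the replicates had a Spearman rho of 0.732.

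Across the span and its flanks there were 35 optimal peaks, or 31.5 per Mb, against 19.2 per Mb over the genome. The replicates had 30 and 37 among their strongest peaks (33.5 ± 4.95, SD, n = 2). Of the 35, 20 lay at member starts. Among these are the weaker second peaks at Pcdhga3, Pcdhga5 and Pcdhga7, each of which overlaps the stronger peak and is matched in only 1 replicate. With these second peaks counted, the gamma sub-cluster held 18 peaks in 180 kb, or 99.96 per Mb. The alpha sub-cluster held 4 (15.5 per Mb) and the beta sub-cluster 2 (7.71 per Mb). The upstream flank held none and the downstream flank 8. The longest stretch without an optimal peak was 184 kb, from Pcdhb3 to Pcdhb17, followed by 159 kb from Pcdhb17 to a peak 43 bp upstream of the start of Taf7. Taf7, a general transcription factor gene between beta and gamma, had a signal of 31.3, and its neighbour Slc25a2 had no peak.

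Away from member starts, the strongest peak inside the span covered chr18:37841413-37841524, in the last exon that the gamma genes share, 404 bp before the end of the span. Its signal was 103 and its relative signal 1.52 ± 0.570 (SD, n = 2), with a motif match of 1 mismatch that points against the genes. After the peak at Pcdhgb8, the next were a peak of signal 38.1 in the intron after Pcdhga12 and a single peak of signal 35.0 between the alpha and beta genes. The latter covered chr18:37218263-37218578, 30.8 kb past the last alpha base and 46.5 kb before Pcdhb1. Its relative signal was 0.554 ± 0.169 (SD, n = 2), and its motif, with 1 mismatch, also points against the genes. Taf7 completed the 5 strongest. A known enhancer of the alpha genes lies between the alpha and beta genes, and whether it coincides with this peak was not examined. A peak in the coding exon of Pcdhga8, 2229 bp from its start, was the nearest to fall outside the 1 kb window, with a signal of 27.2, and the farthest inside lay 582 bp from a start.

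Signals were higher just past the gamma genes, around Diaph1, a formin gene that is transcribed towards them. The peak at chr18:37883487-37883849, in an intron of Diaph1, had a signal of 483 (rank 580) and, relative to ordinary strong peaks, 7.26 ± 2.18 (SD, n = 2). The peak at chr18:37935514-37935831, 197 bp upstream of a Diaph1 start, had 467 and 7.04 ± 1.77 (SD, n = 2). Another in an intron of Diaph1, at chr18:37852140-37852482 and 10.4 kb past the span, had 388 and 5.86 ± 1.01 (SD, n = 2). Each replicate placed these above every member, whose highest relative signal was 3.45. Over the 35 peaks, 13 had a motif match (37.1%), of which 5 point along the protocadherin genes and 8 against them. The 4 matches in the alpha sub-cluster all point along the genes, and the 3 in the gamma sub-cluster, none at a member start, all point against them.

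**Figure D5:**
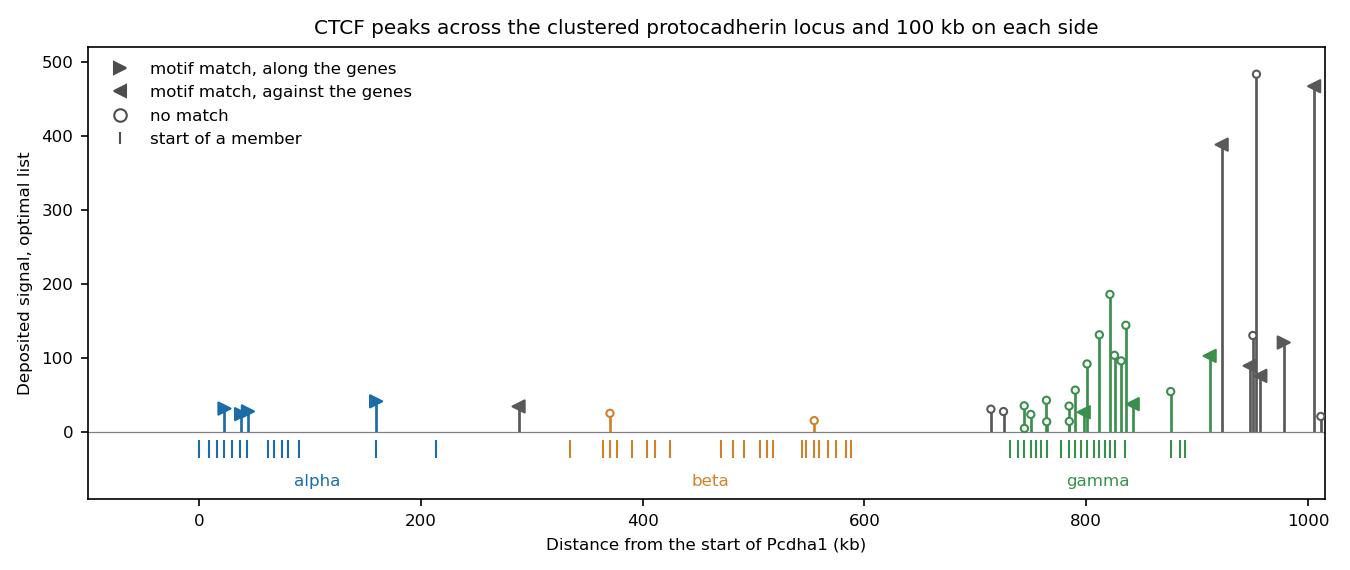
Optimal peaks across the locus by distance from the start of Pcdha1 (horizontal axis, kb) and deposited signal (vertical axis, no stated unit), with arrows for the direction of a motif match and open circles for peaks with none. The 18 gamma peaks stand close together, the beta stretch is nearly empty, and the highest points lie in the downstream flank at Diaph1.

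Other gene families were counted the same way, beside the 35.2% of all protein-coding genes. Of 12 non-clustered protocadherin genes, single genes outside the clusters that encode related proteins, 3 had an optimal peak within 1 kb. These were Pcdh1 (signal 458, 833 bp upstream), Pcdh17 (21.5, 312 bp upstream) and Pcdh8 (18.4, 881 bp downstream). Pcdh1 is also on chromosome 18. The summits of these 3 lay farther from a start than those of the 11 gamma members with a peak, which lay within 127 bp. The Ugt1a genes, liver enzymes that also use alternative first exons, had a peak at 1 of 9 starts. CpG dinucleotides, counted within 500 bp of the start, had a median of 35.5 in alpha, 33 in gamma and 15 in beta, against 41 for all protein-coding genes. Members with an optimal peak had a median of 37 in gamma, 36.5 in alpha and 18 in beta, and those without one had 29.5, 34.5 and 14.5. Over the 17 members with a peak, CpG count and signal had a Spearman rho of 0.510 and a Pearson r of 0.254 on log2 signal. The part of CpG content in the peaks was not tested.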

How the data were processed

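Peak lists were used as the authors deposited them, on mouse build mm10, per the labels and the deposited descriptions. The deposited signal is the peak caller's value for each peak. The authors also deposited the -log10 q value, which was not used. Which program called the peaks is not given in the sources used. The optimal and conservative lists were derived from the pooled and replicate lists by the irreproducible discovery rate, per the deposited descriptions. Files give no read counts, so depth is unknown.

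Summits were assigned to GENCODE vM21 starts with Python 3.11.15, numpy 2.4.6, pandas 2.3.3 and SciPy 1.17.1, and the assignment and motif search were tested on simulated data. The motif was the 14-letter core CTCF consensus, searched on both strands within 50 bp of summits. Members and lists were chosen with earlier results of these data known. Named genes were all members with an optimal promoter peak, the C-type members, in each sub-cluster the 3 other members with the highest pooled signal, the 5 strongest peaks away from starts and the 3 strongest in each flank. Further names were chosen after their values were seen, among them Pcdhgb2, Pcdhb1, Pcdha12 and Pcdhga8. Windows around the first coding base and a count over both replicates were added after seeing the data. There is 1 group, so no contrast was tested. The control and signal tracks were not analysed here. No sequences are printed.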

Additional observations from a re-analysis of the deposited data

How the results depend on the processing

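The choice of list moved the counts most. For optimal peaks above the median signal the count of members with a promoter peak was 5 (5 gamma, 0 alpha, 0 beta), for the 100000 strongest pooled peaks 32 (18 gamma, 7 alpha, 7 beta), and for the whole pooled list 46 (20 gamma, 12 alpha, 14 beta), by the construction of these lists. The conservative list left 0 beta members, and the strongest peaks of both replicates left 2 alpha and 0 beta members. A window of 500 bp left 1 alpha member because the exonic summits lie farther away. Using 1 replicate gave 13 to 23 members, 2 to 6 alpha, 0 to 3 beta and 11 to 14 gamma. It gave an alpha median relative signal of 0.424 to 0.507, a gamma median of 0.810 to 1.06, 30 to 37 peaks in the region and a motif share of 15.4% to 26.1%. Without replicate 2 the beta median has no value, because replicate 1 has no matching beta peak. Scaling to matched peaks gave a beta median of 0.527. With at most 3 mismatches the motif share was 58.8%. Gamma had the most members with a peak under each of these settings. Unknown depth, the single biosample and paralogous sequence limit the weak peaks. No paired analysis was possible because there is 1 group and no contrast.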
